A study of Mus musculus with 4 samples.

Results

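The enzymes that make bile acids from cholesterol were examined as a group of 10 genes, chosen by gene symbol: Cyp7a1, Cyp8b1, Cyp27a1, Cyp7b1, Hsd3b7, Akr1d1, Amacr, Acox2, Slc27a5 and Baat. They were read by 12 probes out of 41174 on the array, since Cyp7a1 and Baat had 2 probes each, called brighter and dimmer here by their mean signal. The study compared livers of 2 LB1 mice with livers of 2 control mice, all female and of the strain BALBc, taken 20 days after inoculation. The series is titled as a study of a Lactobacillus isolate linked to ostrich, but LB1 is not spelled out in the labels, which also leave out what the control mice received and their age. Each mouse had its own array, and each of 2 slides held 1 LB1 and 1 control array, so the replicate number is also the slide.

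Bile acids are the main route by which the liver disposes of cholesterol, and after secretion they are altered by gut bacteria and largely return to the liver. In the classical route Cyp7a1, the rate-limiting enzyme, hydroxylates the sterol ring first, and Cyp8b1 then steers the product towards cholic acid. In the alternative route mitochondrial Cyp27a1 oxidises the side chain first and Cyp7b1 hydroxylates the ring of the resulting oxysterols. Both routes then share enzymes that remodel the ring, shorten the side chain in peroxisomes and join the acid to taurine or glycine.

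The array reads each gene through a short oligonucleotide, and the probe therefore decides which stretch of the transcript is seen. The probes of Cyp8b1 and Cyp27a1 are printed as the files give them, 5′ to 3′, as members of opposite routes that both fell. The dimmer probes of Cyp7a1 and Baat are printed because each gave another result in the test than the brighter probe of its gene. The brighter Cyp7a1 probe, on which the contrast of the routes below rests, is given by position only. Probe positions are on mm9.
Cyp7a1, dimmer probe, chr4:6195632-6196238, minus strand: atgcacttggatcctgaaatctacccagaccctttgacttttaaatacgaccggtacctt
Cyp8b1, chr9:121824595-121824654, minus strand: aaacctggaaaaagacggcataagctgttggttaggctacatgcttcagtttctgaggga
Cyp27a1, chr1:74782203-74782262, plus strand: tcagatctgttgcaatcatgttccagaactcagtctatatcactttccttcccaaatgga
Baat, dimmer probe, chr4:49502933-49502992, minus strand: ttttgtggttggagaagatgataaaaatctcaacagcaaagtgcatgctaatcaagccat
The dimmer Cyp7a1 probe spans 607 genomic bases for its 60 bases and so crosses an intron. The brighter Cyp7a1 probe lies at chr4:6193456-6193515 and begins at base 3415 of the transcript, against base 1239 for the dimmer probe.

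RefSeq promoters on GRCm38.p6 were found for 5 of the 10 genes, and those of Cyp8b1 and Cyp27a1, genes of opposite routes whose probes both gave lower values in LB1 livers, are shown over the 250 bases before the start. Capitals mark matches to the motifs searched on both strands: CAAAGTCCA for HNF4, TCAAGGTCA for NR5A2, TATAAA, and the inverted repeat bound by FXR.
Cyp8b1, chr9:121916306-121916555, minus strand: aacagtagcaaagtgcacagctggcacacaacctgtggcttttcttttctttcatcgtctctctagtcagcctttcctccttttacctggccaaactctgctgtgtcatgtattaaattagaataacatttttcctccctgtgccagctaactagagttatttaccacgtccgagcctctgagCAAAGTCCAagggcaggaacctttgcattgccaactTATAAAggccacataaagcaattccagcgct
Cyp27a1, chr1:74713285-74713534, plus strand: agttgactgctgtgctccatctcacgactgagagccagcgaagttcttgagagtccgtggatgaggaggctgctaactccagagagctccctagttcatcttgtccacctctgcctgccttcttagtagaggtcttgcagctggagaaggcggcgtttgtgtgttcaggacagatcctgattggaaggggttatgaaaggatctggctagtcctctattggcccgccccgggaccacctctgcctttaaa
The Cyp8b1 promoter held CAAAGTCCA at -67 to -59 and TATAAA at -31 to -26 from the start. CAAAGTCCA occurred in 0.384% and TATAAA in 12.4% of all 32851 promoter windows. TCAAGGTCA occurred in 0.387% and the FXR repeat in 0.00609% of the windows. None of the 4 motifs was found in the promoter windows of Cyp27a1, Akr1d1, Hsd3b7 and Acox2.

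The LB1 arrays were dimmer as a whole: the 75th percentile of their processed signal was 147 and 80.8, against 411 and 415 on the control arrays. All values were therefore scaled to that percentile of their own array, and a log2 value of 0 is a signal equal to it. The processed signal of all 12 probes was lower on both LB1 arrays than on both control arrays before scaling. The share of all probes that did so was not counted, so this shows nothing particular to the members. After scaling, the median difference over all 22971 probes tested was 0.16, and 32.4% of them passed the test (adjusted p under 0.05, limma). The LB1 arrays had 22921 and 20311 spots well above background, against 25861 and 24736 on the control arrays. In liver RNA, fewer cells of a type and less RNA per cell cannot be told apart.

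Of the 12 probes, 5 fell in LB1 livers, 1 rose and 6 did not pass, against 13.2% of all tested probes lower and 19.2% higher. The probes that fell belonged to Cyp7a1, Cyp8b1, Cyp27a1, Akr1d1 and Baat, and the probe that rose to Hsd3b7. The median difference over the 12 probes was -0.81. Taking the brightest probe of each gene, 4 genes fell and 1 rose with a median of -0.28, against a median of 0.29 and 9.78% lower and 21.7% higher over all 15783 genes. With the slide as a block, 6 probes fell and 0 rose, against 12.1% and 18.3% of all probes by limma. At an unadjusted p under 0.05 in that fit 6 fell and 1 rose, where 11188 of 22955 probes passed in either direction. Fewer members, and fewer of all probes, passed when either control array was left out. Leaving out LB1 replicate 1 gave 6 that fell and 1 that rose, and leaving out LB1 replicate 2 gave 5 and 0, against 21.8% and 26.2%, and 10.8% and 15.4%, of all probes. Without control replicate 1 the shares of all probes were 0.0609% lower and 0.544% higher, and without control replicate 2 they were 0.00435% and 0.0%. Exact permutation of 2 against 2 arrays has 6 assignments and cannot give a p below 0.333.

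The counts depended on the way the arrays were processed. The median over the 12 probes was -1.20 with normexp and -1.04 with the series table, where the median of all tested probes was 0.44 in both cases. With normexp background correction 8 member probes fell and 0 rose, against 20.2% and 49.4% of all tested probes. With quantile normalization 6 fell and 0 rose, against 17.3% and 10.7%, and with cyclic loess 5 fell and 0 rose, against 17.6% and 13.0%. Scaled to the array median, 7 fell and 0 rose, against 31.0% and 7.21%. The series table gave 7 that fell and 1 that rose, against 16.3% and 46.5%, and array weights gave 5 and 0, against 13.0% and 17.7%. At an unadjusted p under 0.05, limma had 0 members higher with normexp, quantile, cyclic loess or the array median and 1 with array weights. In that order 16685, 10741, 11012, 10720 and 10869 of all probes passed this threshold in either direction. The study's own rule, the methods' t-test at an unadjusted threshold with at least 2-fold, called Cyp27a1 and the brighter Cyp7a1 probe lower and 0 higher, against 8.19% and 9.71% of probes, and 0.0% of probes after Benjamini-Hochberg adjustment. The groups did not overlap at 8 of the 12 probes, 7 of them lower in LB1 livers, against 76.1% of all tested probes.

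**Figure D1:**
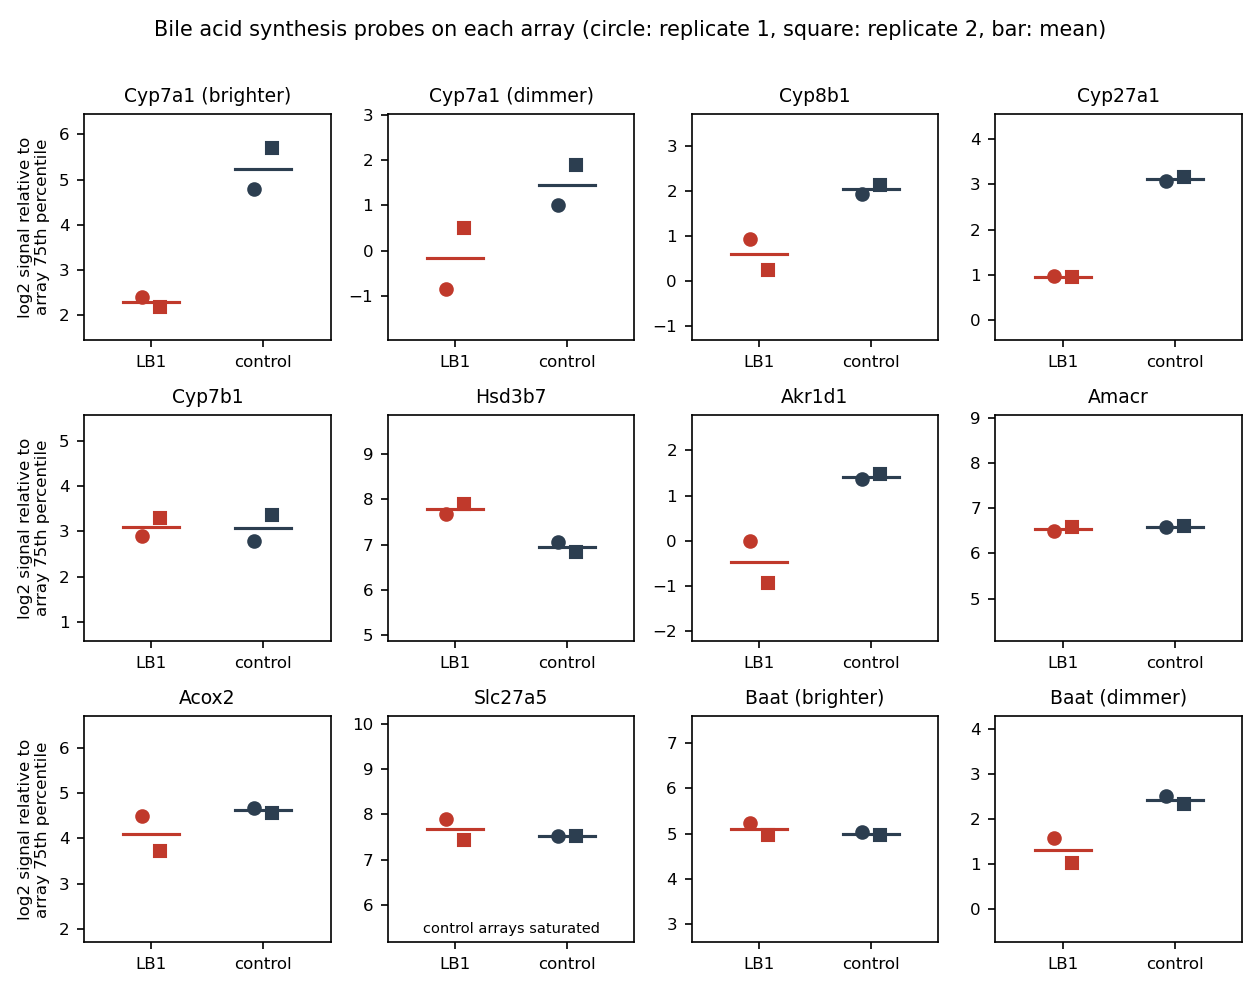
Log2 signal of each of the 12 probes relative to the array's 75th percentile, by array, with LB1 livers left of control livers and a bar at each mean of 2 arrays. The brighter Cyp7a1 probe lay at 2.40 and 2.19 on the LB1 arrays and at 4.78 and 5.70 on the control arrays, whereas Amacr and Cyp7b1 overlapped.

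Cyp7a1, the entry enzyme of the classical route, showed the largest difference of the 12 probes at its brighter probe. Its processed signal was 773 and 369 in LB1 livers, against 11316 and 21602 in control livers. Scaled log2 values were 2.40 and 2.19 in LB1 livers, against 4.78 and 5.70 in control livers. The groups did not overlap, and both LB1 mice were low. The mean was 2.29 ± 0.14 in LB1 livers and 5.24 ± 0.65 in control livers (SD, n = 2 each). That is a log2 difference of -2.95 (SE 0.36, limma adjusted p = 0.0211; 0.0308 with the slide as a block), or 7.72-fold lower. Only 0.152% of all tested probes had a lower difference. The value was -2.39 within slide 1 and -3.51 within slide 2, and under the other scalings it lay between -3.16 and -3.58.

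The dimmer Cyp7a1 probe pointed the same way with a smaller difference. It read -0.85 and 0.51 on the LB1 arrays, against 1.003 and 1.89 on the control arrays. The groups did not overlap, but the LB1 mice differed by more than a log2 unit from each other. The difference of -1.62 (SE 0.55) did not pass (limma adjusted p = 0.0772), although it did with the slide as a block (adjusted p = 0.0308). The brighter probe's difference exceeded that of the dimmer probe by -1.33 on the log2 scale.

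Cyp8b1, which sets how much cholic acid is made, fell as well. Its processed signal was 281 and 96.4 in LB1 livers, against 1563 and 1816 in control livers. Scaled values were 0.93 and 0.26 in LB1 livers and 1.93 and 2.13 in control livers, with no overlap. The difference was -1.43 (SE 0.30, limma adjusted p = 0.0296), or 2.70-fold lower, and it passed under all 5 other scalings. It was -0.99 within slide 1 and -1.87 within slide 2.

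Cyp27a1, which opens the alternative route, had the closest replicates of the probes that fell. Its processed signal was 287 and 156 in LB1 livers, against 3452 and 3686 in control livers. Scaled values were 0.97 and 0.95 in LB1 livers and 3.07 and 3.15 in control livers. Both LB1 mice lay about 2 log2 units under both controls. The difference was -2.15 (SE 0.21, limma adjusted p = 0.0201), or 4.44-fold lower, and it was -2.10 within slide 1 and -2.20 within slide 2.

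Cyp7b1, the oxysterol hydroxylase of the same route, did not pass the test. Its scaled values were 2.89 and 3.30 in LB1 livers, against 2.78 and 3.35 in control livers, and the groups overlapped. The difference was 0.03 (SE 0.30, limma adjusted p = 0.949). Its sign turned under all 5 other scalings, where it lay between -0.12 and -0.61 and did not pass.

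The routes were set against each other within each array, where any scaling by 1 factor cancels. The mean of Cyp7a1 and Cyp8b1 minus the mean of Cyp27a1 and Cyp7b1, brightest probes, was -0.27 and -0.90 in LB1 livers, against 0.43 and 0.66 in control livers. The classical enzymes were thus lower relative to the alternative ones in LB1 livers by -1.13 (pooled SD 0.34), given as a description with no test. The mean difference was -2.19 for the classical pair and -1.06 for the alternative pair. The genes did not split cleanly by route. Cyp7a1 minus Cyp7b1 differed by -2.98 and Cyp27a1 minus Cyp7b1, both of the alternative route, by -2.18. Cyp8b1 minus Cyp27a1 differed by 0.72, the other way. With each gene's probes averaged in place of taking the brightest, the contrast of the routes was -0.80. With the dimmer Cyp7a1 probe, a choice made after seeing the data, the contrast of the routes was -0.46.

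**Figure D2:**
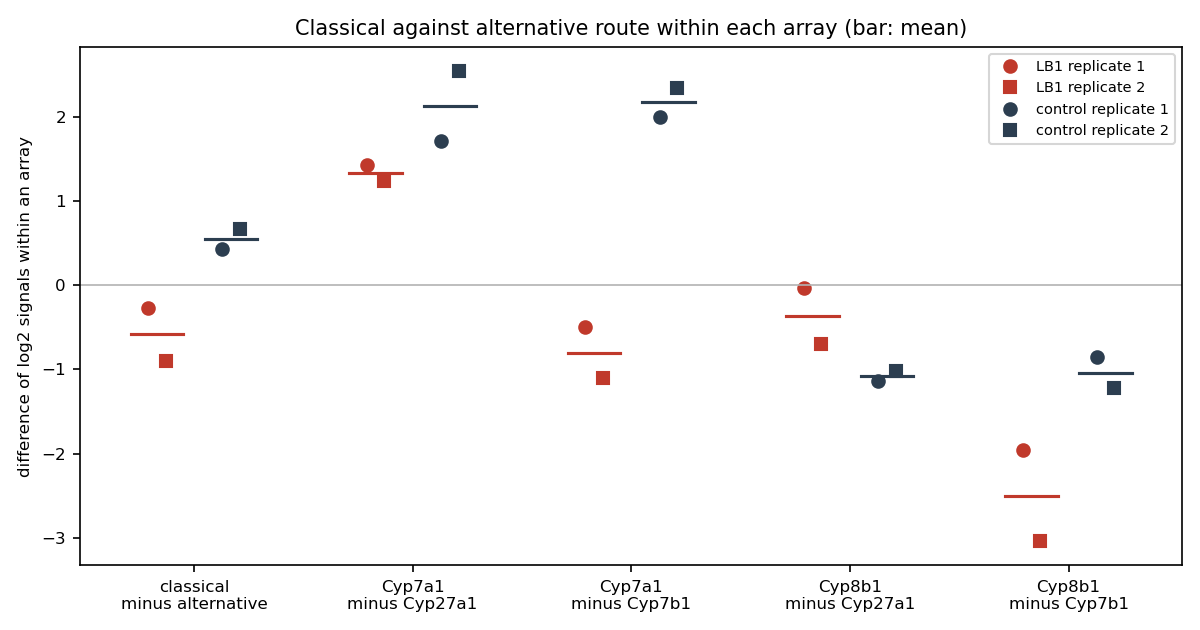
Difference of log2 signals within each array for the 2 routes and for single pairs of their genes, LB1 arrays left of control arrays, with a bar at each mean of 2 arrays. The contrast of the routes was -0.27 and -0.90 on the LB1 arrays and 0.43 and 0.66 on the control arrays, and Cyp8b1 minus Cyp27a1 went the other way.

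Among the enzymes that remodel the ring, Akr1d1 fell and Hsd3b7 rose. Akr1d1, the reductase of the ring's double bond, had a processed signal of 146 and 42.5 in LB1 livers, against 1055 and 1154 in control livers. Its scaled values were -0.01 and -0.93 in LB1 livers and 1.36 and 1.48 in control livers, with no overlap. The difference was -1.89 (SE 0.36, limma adjusted p = 0.0252), or 3.70-fold lower, and it passed under all 5 other scalings.

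Hsd3b7, a dehydrogenase acting before Akr1d1 in the classical route, read 7.68 and 7.89 on the LB1 arrays, against 7.05 and 6.83 on the control arrays. Both LB1 values were higher than both control values. The difference was 0.84 (SE 0.23, limma adjusted p = 0.046), or 1.79-fold higher. Of all tested probes, 75.1% had a lower difference. In limma it did not pass with the slide as a block (adjusted p = 0.0679), with the quantile scaling (0.19, adjusted p = 0.542) or with normexp (0.24, adjusted p = 0.173). Nor did it with the array median (0.21, adjusted p = 0.721) or cyclic loess (0.11, adjusted p = 0.727). With the series table it passed (0.50, adjusted p = 0.0421). Its unscaled processed signal was 30048 and 19155 in LB1 livers, against 54449 and 47135 in control livers. Its control spots were not flagged as saturated, but Por, at 54218 and 52041 in control livers, was flagged on 1 control array.

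The peroxisomal enzymes of the side chain did not pass. Amacr, the racemase that prepares the side chain, read 6.50 and 6.58 in LB1 livers, against 6.57 and 6.61 in control livers. The groups overlapped and the difference was -0.05 (SE 0.21, limma adjusted p = 0.866), but with normexp it was -0.63 (adjusted p = 0.0043). Acox2, the oxidase that follows, read 4.49 and 3.72 in LB1 livers, against 4.67 and 4.56 in control livers. Its groups did not overlap, and the difference of -0.51 (SE 0.32, limma adjusted p = 0.256) passed with normexp (-1.06), the array median (-1.14) and the series table (-0.83).

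At the conjugation step Slc27a5, which activates bile acids with coenzyme A, was saturated on both control arrays. Its scaled values were 7.89 and 7.44 in LB1 livers, against 7.53 and 7.53 in control livers. The difference of 0.14 (SE 0.25, limma adjusted p = 0.692) is therefore an upper limit, and with quantile scaling it was -1.06 (adjusted p = 0.0397).

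Baat, which joins bile acids to taurine or glycine, gave different results at its 2 probes. The brighter probe read 5.22 and 4.96 in LB1 livers, against 5.04 and 4.96 in control livers, a difference of 0.09 (SE 0.22, limma adjusted p = 0.766). The dimmer probe, printed above, read 1.59 and 1.03 in LB1 livers, against 2.51 and 2.34 in control livers. Its groups did not overlap, and it fell by 1.12 (SE 0.28, limma adjusted p = 0.0387), or 2.17-fold lower. The probes therefore disagreed on whether Baat passed. Over 2329 other transcripts with a pair of probes at least 300 bases apart, the downstream probe's difference minus the upstream probe's had a median of 0.15 and quartiles of -0.73 and 0.98.

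**Figure D3:**
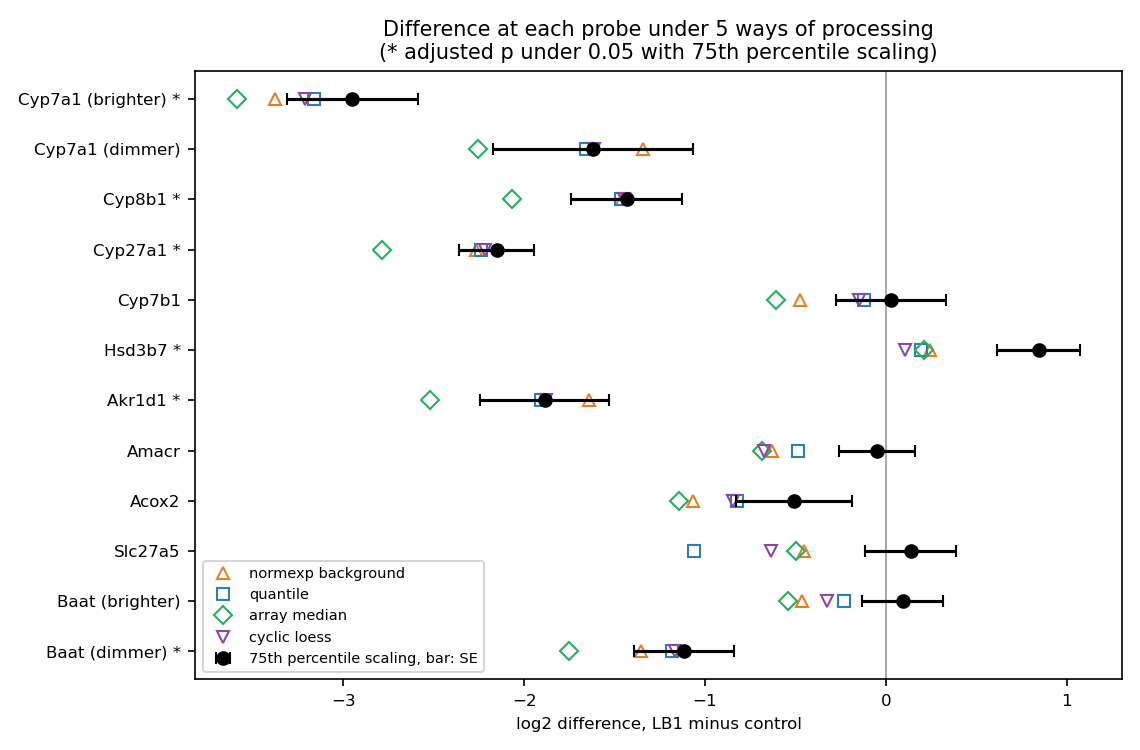
Log2 difference, LB1 minus control, of each of the 12 probes under 75th percentile scaling (black, bar: SE) and under the other ways of processing (open symbols). The brighter Cyp7a1 probe stayed between -2.95 and -3.58, and Hsd3b7 lay between 0.11 and 0.84.

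The members' differences moved with the brightness of their probes. Over the 12 probes the Spearman rank correlation of mean signal and difference was 0.73, against 0.02 over all 22971 tested probes, as a description over probes that share the same 4 arrays. The mean signal includes the LB1 values that also enter the difference, and with the mean of the control arrays in its place the correlation over the 12 probes was 0.57. With all tested probes ranked by brightness in 10 equal bins, the median difference was -0.02 in bin 7, 0.06 in bin 8, 0.20 in bin 9 and 0.49 in bin 10. The part of brightness in the result was not tested.

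**Figure D4:**
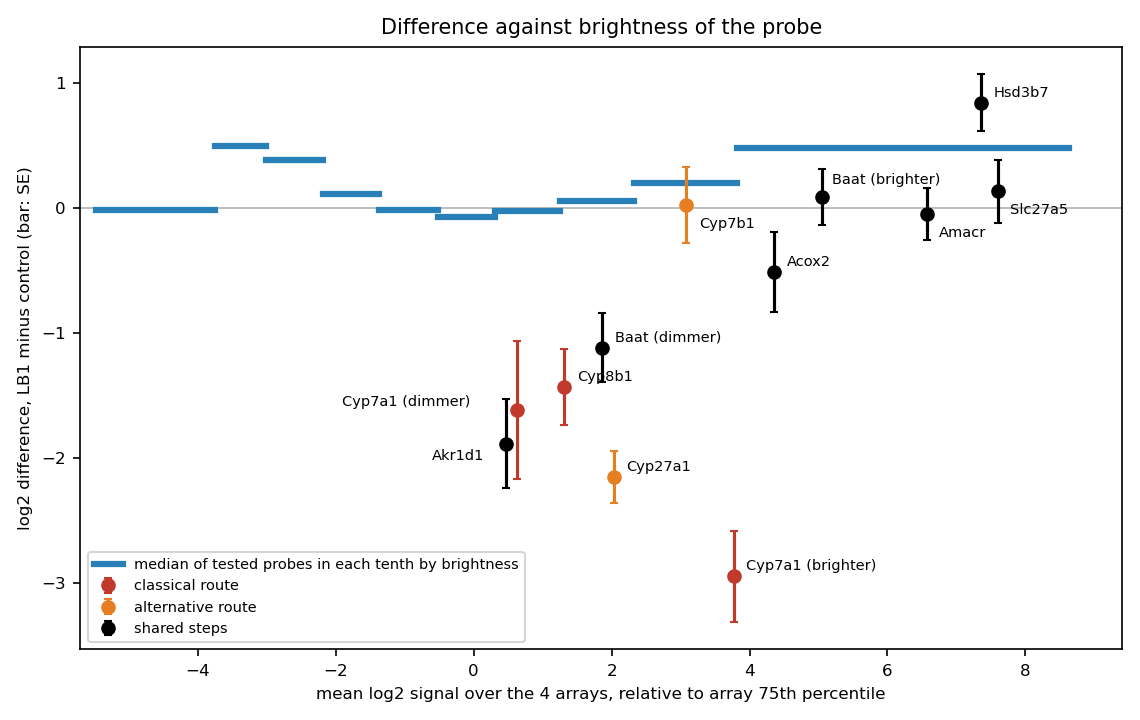
Log2 difference, LB1 minus control, of each of the 12 probes (points, bar: SE) against mean log2 signal over the 4 arrays, with the median of all tested probes in 10 bins by brightness (blue). The probes that fell lay among the dimmer of the 12, except the brighter Cyp7a1 probe, and the brightest bin had a median of 0.49.

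Other genes of bile acid synthesis were taken from a list of 13, of which 12 were tested. By the brightest probe of each gene 2 fell, 0 rose and 10 did not pass in limma, against 9.78% of all genes lower and 21.7% higher. At an unadjusted p under 0.05 in limma 2 were lower and 3 higher, where 11191 of all 22971 tested probes passed in either direction. The median of 0.49 is no measured value, since Cyp2c70 and Slc27a2 at the middle of the list, and Scp2, were saturated on both control arrays and Por on 1, which makes their differences upper limits. Cyp39a1, another oxysterol hydroxylase, had a processed signal of 127 and 60.3 in LB1 livers, against 1443 and 1817 in control livers. It fell by 2.29 (SE 0.24, limma adjusted p = 0.0201), and its other probe by 2.99 (adjusted p = 0.0201). Akr1c14, a hydroxysteroid dehydrogenase, fell by 1.06 (SE 0.27, limma adjusted p = 0.0401). As with Baat, dimmer probes of Abcd3, a peroxisomal transporter, differed by -1.91 and -2.61, against -0.30 at its brightest probe. Both dimmer probes passed as lower (limma adjusted p = 0.0203 and 0.0211). Slc27a2, an enzyme that activates bile acid precursors, likewise fell by 1.67 at its unsaturated probe (SE 0.39, limma adjusted p = 0.0345), against an upper limit of 0.49 at its brightest probe.

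Regulators of the pathway were taken from a second list of 13, all tested. By the brightest probe 0 fell, 2 rose and 11 did not pass in limma, with a median of 0.36 against 0.29 over all genes. At an unadjusted p under 0.05 in limma 0 were lower and 3 higher, where 11191 of all 22971 tested probes passed in either direction. Over all genes 9.78% were lower and 21.7% higher, so the count of regulators that rose does not stand above the background. Nr5a2 (LRH-1), a nuclear receptor that activates Cyp7a1 and Cyp8b1, read 3.91 and 5.18 in LB1 livers, against 2.53 and 2.55 in control livers. It rose by 2.01 (SE 0.45, limma adjusted p = 0.032), and it was higher on both slides, by 1.39 and 2.63. Before scaling its processed signal was 2215 and 2923 in LB1 livers, against 2369 and 2432 in control livers. It did not pass the methods' t-test (unadjusted p = 0.0864). Ppargc1a, a coactivator of hepatic metabolism, rose by 0.86 (SE 0.23, limma adjusted p = 0.0449) but not with the slide as a block (adjusted p = 0.0594), and its other probe differed by 0.18.

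The receptors through which bile acids repress Cyp7a1 did not pass. Nr1h4 (FXR), the bile acid receptor, differed by 0.02 (SE 0.27, limma adjusted p = 0.957). Nr0b2 (SHP), the repressor that FXR induces, read 0.34 and -0.68 in LB1 livers, against 0.27 and -1.33 in control livers, and the groups overlapped. Fgfr4, the receptor for the gut hormone that lowers Cyp7a1, differed by 0.56 (adjusted p = 0.229, limma), and its partner Klb by -0.57 (adjusted p = 0.11, limma). At this probe Klb passed as lower in limma with the array median (-1.20, adjusted p = 0.0173) and with normexp (-1.01, adjusted p = 0.0026). Its other, dimmer probe went the other way, by 0.99 (limma adjusted p = 0.195).

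**Figure D5:**
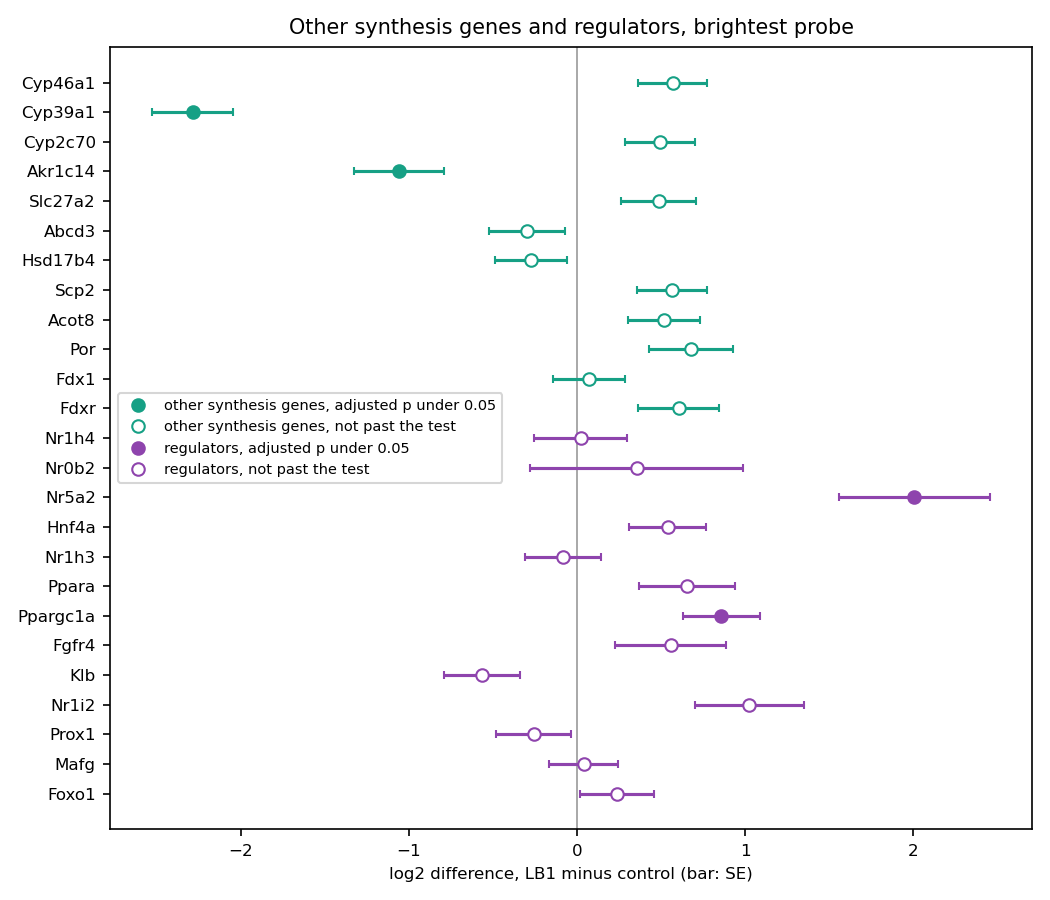
Log2 difference, LB1 minus control, of the brightest probe of each tested gene of the 2 further lists (bar: SE), filled where the adjusted p was under 0.05. Cyp39a1 (-2.29) and Akr1c14 (-1.06) fell, and Nr5a2 (2.01) and Ppargc1a (0.86) rose, while Cyp2c70, Slc27a2 and Scp2 are upper limits.

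Patterns were compared by Euclidean distance of centred log2 values over 16246 probes well above background and unsaturated on the 4 arrays. Only probes with a current gene symbol were used, and genes with Gm, LOC or Rik names were passed over. The probes most like the brighter Cyp7a1 probe belonged to Cyp39a1 (0.366), Eef2 (0.415) and Hbs1l (0.431). Those most like Cyp27a1 belonged to Lypla1 (0.0565), Cept1 (0.0581) and Oxr1 (0.083). Likeness was taken under 75th percentile scaling only. With normexp the difference was -2.26 for Cyp27a1, -1.82 for Lypla1, -2.43 for Cept1 and -0.48 for Oxr1. With the series table Oxr1 was at -0.82, against -2.20 for Cyp27a1.

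Some cell type markers also differed between the groups. Hepatocyte markers were bright on all arrays, and 6 of 8 were tested. Alb, Ahsg and Fgb were saturated on all 4 arrays and Apoa1 on both control arrays and 1 LB1 array, so that these genes gave no measured difference. Ttr, which was not saturated, differed by -0.13 (limma adjusted p = 0.694). The summed processed signal of the hepatocyte list, mostly from saturated spots, was 283597 and 257247 in LB1 livers, against 296517 and 296943 in control livers. Markers of the mesothelium, which lines the liver's surface, were tested for 4 of 7 genes and 3 rose. Upk1b, Wt1 and Bnc1 were too dim to test. The list was chosen knowing that 1 of its genes rose, so its count is no independent result. Lrrn4, 1 of the 3, was well above background on both LB1 arrays and on 0 control arrays. It was thus tested through the LB1 group alone. The summed processed signal of the mesothelial list, mostly from 1 gene, was 1069 and 1842 in LB1 livers, against 317 and 44.2 in control livers. Of the other lists, 2 of 4 cholangiocyte markers were higher and 1 lower. Of the 2 higher, 1 was well above background on only 1 control array, and so was tested through the LB1 group alone. Among the rest, 1 of 5 Kupffer cell markers was lower, 1 of 5 stellate markers was higher and 0 of 5 endothelial markers passed in limma. At an unadjusted p under 0.05 in limma 1 endothelial marker was lower, where 11191 of all 22971 tested probes passed in either direction. Over all genes 9.78% were lower and 21.7% higher, and counts in lists this small are a description only. The part of cell types in the results was not tested.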

How the data were processed

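Liver RNA of 2 LB1 and 2 control mice was hybridised to Agilent arrays with 1 dye. The deposited files hold spot intensity on a linear scale, background-corrected within each array by Feature Extraction 10.5.1.1, per the file headers, and the design text names another version. The deposited series table holds the mean spot intensity rounded to whole numbers (100% of spots within 0.5), on a linear scale and without centring. Its medians over non-control spots were 63 and 46 for the LB1 arrays and 74 and 68 for the control arrays.

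Control spots and outlier spots were dropped. Processed signals were put on the log2 scale and each array's 75th percentile over 43379 non-control spots was subtracted. Spots of a probe were averaged. Testing required a probe well above background on every array of 1 group or the other, and all 12 member probes were so on all 4 arrays. The groups were fitted in limma 3.58.1 (lmFit, eBayes; R 4.3.3), tested on simulated data, with Benjamini-Hochberg adjustment over all tested probes. A difference is LB1 minus control. The number of arrays limits the precision.

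The labels name separate mice but nothing more of their origin. Arrays of 1 slide shared their number, and their deviations from the group means correlated at 0.151, so the slide was fitted as a block as an alternative. Other alternatives were normexp, quantile, array median, the series table, filters on dim probes, eBayes with trend, the methods' t-test and leaving out each array. Cyclic loess, array weights and the other Cyp7a1 probe were chosen after seeing the data. Members, lists and the rule for named genes (every member probe, genes of the further lists that passed, 5 named regulators, and 3 genes most like Cyp7a1 and Cyp27a1) were chosen with earlier results of these data known. Probe coordinates are those of the files, and exon or UTR positions were not used here. The result of 1 cell type marker is not reported here.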

Additional observations from a re-analysis of the deposited data

How the results depend on the processing

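All probes called numbered 7439, and 15993 with normexp, 20683 with no filter on dim probes, 14441 with the series table, 4109 by the methods' t-test and 0 after its adjustment (7012 at an unadjusted p under 0.05); leaving out 1 array gave 1 to 11029. Members that fell numbered 8 with normexp, 2 by the methods' t-test and 0 after adjustment, and 0 to 6 without 1 array. Members that rose numbered 0 with normexp, quantile, array median, cyclic loess, array weights, both forms of the methods' t-test and the replicate block, and 0 to 1 without 1 array. Under the replicate block 6 members fell, against 5 without it. The contrast of the routes was -0.69 within slide 1, -1.57 within slide 2, -0.46 with the other Cyp7a1 probe, -0.80 with each gene's probes averaged, and -1.45 to -0.81 without 1 array. Signs turned for values that had not passed. In the order normexp, quantile, array median, series table and cyclic loess, these were -0.47, -0.12, -0.61, -0.26 and -0.15 for Cyp7b1, -0.45, -1.06, -0.50, -0.20 and -0.64 for Slc27a5, -0.46, -0.23, -0.54, -0.22 and -0.33 for the brighter Baat probe, and -0.54, -0.30, -0.61, -0.30 and -0.36 for Nr1h4. With the array median Nr0b2 was -0.28 and Fgfr4 -0.078. Without 1 array the ranges were -0.26 to 0.31 for Cyp7b1, -0.089 to 0.36 for Slc27a5, -0.041 to 0.23 for the brighter Baat probe, -0.26 to 0.31 for Nr1h4 and -0.44 to 1.15 for Nr0b2. The median of all tested probes was 0.44 with normexp, -0.09 with quantile, -0.05 with cyclic loess and -0.47 with the array median, and 59.3% of calls were higher in LB1 livers, against 71.0%, 38.2%, 42.5% and 18.9% under these settings and 74.0% with the series table. A lone array was assumed to vary like the other group. Causes were not tested, and the LB1 arrays' lower signal limits dim probes.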
